A study of Bactrocera dorsalis with 16 samples.

Results

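The microRNAs miR-309 and miR-286 were followed in a pair of tissues, ovary and fat body, of the oriental fruit fly Bactrocera dorsalis. Entries of the small RNA table were chosen by name, as those called miR-309, miR-309a, miR-309b, miR-286, miR-286a or miR-3 in either arm and for any species prefix. There were 11 such entries with 10 distinct sequences, of 747 distinct sequences in all, and 0 entries were named miR-3. Both tissues were taken from females at 1, 5, 9 and 13 days after eclosion, reared as a laboratory stock on yeast extract and sugar, and the labels name no strain and no other treatment. Each of the 8 groups of tissue and day had 2 libraries, called biological replicates in the series' design text, without a number of flies. Levels are the deposited normalised signal, of whose low values 86.5% to 92.9% were whole multiples of 1 step per library, within 0.1 of a step.

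In Drosophila, miR-309 and miR-286 are made from 1 transcript together with miR-3, miR-4, miR-5 and miR-6. That cluster is switched on in the early embryo, where its miRNAs take part in the removal of maternal mRNA. In the mosquito Aedes aegypti, miR-309 is a miRNA of the ovary that is needed for egg development after a blood meal. A miRNA finds its targets mainly through its seed, bases 2 to 8 from the 5′ end.

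The sequences below are those the results turn on, as the deposited table writes them (5′ to 3′, T for U), with the seed in capitals where the strand is the abundant one. The last pair are not members but share the seeds.
bdo-miR-309a_R-2: tCACTGGGtaaagtttgtcc
bdo-miR-309b: tCACTGGGtaaagtttgtcct
bdo-miR-286: tGACTAGAccgaacactcgtgct
aae-miR-286a_R-1_4ss20CT22TC23CT24CA: tGACTAGAccgaacactcgtgcta
bdo-mir-309b-p5: cggcaaactatattcagctgtg
bdo-mir-309a-p5_1ss5AT: ggactaactttgttcagtattggtg
bdo-mir-286-p5: cagcgattgtcggcctagtcgct
bdo-miR-318: tCACTGGGctttgtttatctca
dgr-miR-279_R-2: tGACTAGAtccacactcatt

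The entries miR-309a and miR-309b shared all 20 bases of the former, and miR-309b had 1 further base, a T. In the naming of the table R-2 marks an end that is 2 bases shorter than the matching known miRNA, so reads of the miR-309a locus that end early and reads of the miR-309b locus cannot be told apart by these sequences. Both are described as length forms with the miR-309 seed, and levels per locus and per length are uncertain. A longer form, dme-miR-309-3p_R+1_1ss1GT, began with all 21 bases of miR-309b. The entry aae-miR-286a was miR-286 with 1 base added to its 23. The opposite arms of both loci differed more, with 14 of 22 positions identical between bdo-mir-309b-p5 and bdo-mir-309a-p5_1ss5AT. The positions of the miRNAs in the genome are not analysed here.

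Both miRNAs were scarce in ovary at days 1 and 5 and abundant at day 13. In ovary miR-286 stood at 17.96 and 18.70 at day 1 and at 52.95 and 48.64 at day 5. It stood at 6325.32 and 1514.45 at day 9 and at 21161.02 and 32640.96 at day 13. In fat body it stood at 5.34 and 10.63 at day 1, at 39.91 and 42.93 at day 5, at 167.60 and 8860.28 at day 9, and at 21.21 and 178.53 at day 13. Ovary was the higher tissue without overlap at days 1, 5 and 13, by little at day 5, and the tissues overlapped at day 9. At day 13 miR-286 made up 2.58% and 3.34% of the summed signal of the ovary libraries, at ranks 11 and 10. At day 1 it made up 0.00347% and 0.00342%, at ranks 171 and 161.

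The 20-base form, miR-309a, stood in ovary at 3.23 and 1.48 at day 1, 4.60 and 3.96 at day 5, 1018.03 and 265.36 at day 9, and 3074.38 and 4479.07 at day 13. In fat body it stood at 0.89 and 5.76, 9.21 and 11.50, 31.79 and 1407.78, and 8.25 and 30.36 at the same days. Before day 9 these levels rest on 2 to 8 recovered reads per library. The form miR-309b, with its added T, stood in ovary at 3.95 and 1.48, 6.91 and 6.22, 787.78 and 249.28, and 6696.98 and 7912.96. In fat body it stood at 2.23 and 3.10, 9.21 and 11.50, 21.67 and 1244.08, and 4.71 and 68.01. The ovary of day 13 held the highest level of each of the 3 sequences, without overlap with any other group, and fat body lay above ovary for both miR-309 forms at day 5. Before day 9 the levels of miR-309b rest on 3 to 8 recovered reads per library. At day 5 its values of 9.21 in fat body and 6.91 in ovary were 3 recovered reads each, so their order rests on the scaling.

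**Figure D1:**
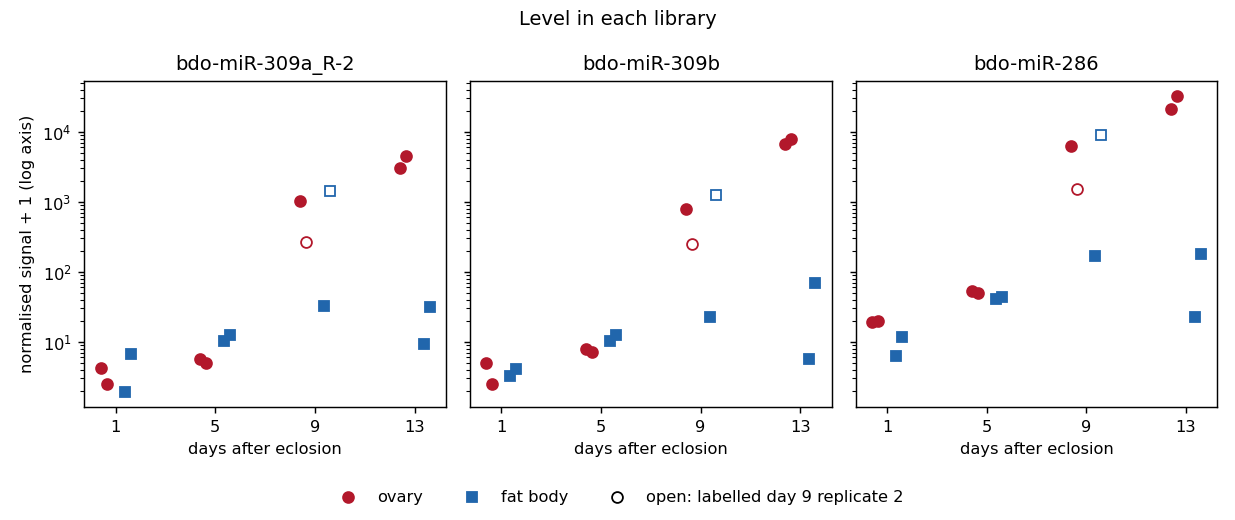
Normalised signal plus 1 (log axis) of the 3 main sequences in each of the 16 libraries against days after eclosion, circles for ovary and squares for fat body, open where the label is day 9 replicate 2. The ovary libraries of day 13 lie above all others, while the open square of fat body lies near or above the ovary circles of day 9 and far above its replicate.

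In all groups the order of means was the same in its upper part for the 3 sequences. Ovary day 13 came first (26901 ± 8118 for miR-286, 7305 ± 860 for miR-309b and 3777 ± 993 for miR-309a, SD, n = 2). Fat body day 9 and ovary day 9 followed and overlapped with each other. Fat body day 13 came next, overlapping with the group below it, which was ovary day 5 for miR-286 (50.80 ± 3.05) and fat body day 5 for both forms of miR-309 (10.36 ± 1.62 each).

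By the tissue markers, the second library labelled fat body at day 9 went against its label, and the second of ovary at day 9 held markers of both tissues. In the second fat body library of day 9, as labelled, the ovary markers miR-989, miR-318 and miR-994 (9 sequences) took 26.6% of the signal, against 0.0225% to 0.474% in the other 7 fat body libraries and 0.222% to 26.3% in ovary. The fat body markers miR-8, miR-14, miR-252, miR-274, miR-277 and miR-278 (19 sequences) took 12.0% there and 26.6% to 39.4% in the other 7. Of these, miR-252 and miR-274 were chosen from earlier results of these data. The shares of fat body markers are thus partly drawn from the data they describe. In the library labelled ovary day 9 replicate 2 the fat body markers took 30.0%, against 5.74% to 12.0% in the other 7 ovary libraries. The ovary markers took 4.88% there, against 26.3% in its replicate and 19.9% and 23.5% in ovary at day 13. At day 5 they took 4.79% and 6.66% of the ovary signal. Muscle markers (miR-1 and miR-133) took 6.71% in ovary day 9 replicate 2 and 0.710% in its replicate. They took 1.23% in the second library labelled fat body day 9 and 6.33% to 8.07% in the other 7 of fat body. The high value of miR-286 labelled fat body day 9, 8860.28, comes from that second fat body library. Values of day 9 are therefore given by library, and counts of called members are also given without both second replicates of day 9.

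Depth and the muscle markers also moved with the days. Recovered reads were 193956 and 383766 in ovary and 213845 and 416607 in fat body at day 5, fewer than in the other libraries, which had 481147 to 1864984. Muscle markers made up 4.51% and 4.32% of the ovary signal at day 1 and 0.483% and 0.490% at day 13, and nerve markers (miR-124, miR-137 and miR-1000) made up 0.133% or less of any ovary library. Their part in the results was not tested. In whole tissues, fewer cells of a type and less of a miRNA per cell cannot be told apart.

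The rise in ovary between days 5 and 13 was tested with limma on log2(value + 1) over the 321 sequences that reached 10 in 2 or more libraries. Differences are on that scale, and p-values are adjusted over the 321 sequences by the Benjamini-Hochberg method, with a call under 0.05. For miR-309b the difference was 9.91 (SE 1.48, adjusted p = 0.000478, 963-fold as fitted), for miR-309a 9.46 (SE 1.35, adjusted p = 0.000478, 704-fold) and for miR-286 8.99 (SE 1.41, adjusted p = 0.000505, 508-fold). As plain ratios of the mean signal these were 1110, 882 and 530. In each case both libraries of day 13 lay above both of day 5. All 7 member sequences that passed the filter were called higher, beside 26.8% of all tested sequences called in either direction, and 48.0% without both second replicates of day 9, when the 7 were called too. Without both libraries the adjusted p was 1.64e-05 for miR-309b, 5.26e-06 for miR-309a and 7.27e-06 for miR-286, at the same differences.

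Of the 10 members, 3 did not pass the filter, and 3 of the 7 that passed did so only through 5 libraries, those of ovary at days 9 and 13 and the second one labelled fat body day 9. Those 3 (bdo-mir-286-p5, bdo-mir-309b-p5 and dme-miR-309-3p_R+1_1ss1GT) had to differ between groups, so counts of members are a description. The 3 main sequences and aae-miR-286a passed outside those libraries as well.

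Over all 4 days the ovary differed for each main sequence, with a largest change from day 1 of 11.02 for miR-309b, 10.41 for miR-286 and 10.16 for miR-309a (joint limma test, adjusted p = 0.0003 each). All 7 tested members were called, beside 27.1% of all sequences (54.8% without both second replicates of day 9, again with all 7 members). Between days 1 and 5 no member was called. The difference was 1.42 for miR-286 (SE 1.41, adjusted p = 0.726), 1.11 for miR-309b (SE 1.48, adjusted p = 0.81) and 0.70 for miR-309a (SE 1.35, adjusted p = 0.877). That limma comparison called 0% of all sequences with all libraries, with 48 at an unadjusted p under 0.05, and 9.97% without both second replicates of day 9. On recovered reads edgeR called 0 and DESeq2 7 of all sequences, with no member among them, and no member had an unadjusted p under 0.05 by any of these tools. The libraries of miR-286 did not overlap between the days (17.96 and 18.70 against 52.95 and 48.64), on 25, 38, 23 and 43 recovered reads.

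Ovary and fat body were compared at each day, with the same ovary libraries of day 13 as above. At day 13 miR-286 was 8.70 higher in ovary (SE 1.41, adjusted p = 0.00122), miR-309b 8.52 (SE 1.48, adjusted p = 0.00122) and miR-309a 7.77 (SE 1.35, adjusted p = 0.00122). The ratios of mean signal were 269, 201 and 196. All 7 tested members were called higher in ovary, beside 44.9% of all sequences (55.1% without both second replicates of day 9, with 7 members, and adjusted p of 5.83e-06 for miR-286, 2.64e-05 for miR-309b and 1.01e-05 for miR-309a). The fat body libraries of day 13 differed among themselves, with 21.21 and 178.53 of miR-286, 4.71 and 68.01 of miR-309b, and 8.25 and 30.36 of miR-309a, replicate 2 being the higher each time. The ovary markers took 0.0239% and 0.143% of these same libraries, also higher in replicate 2.

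At days 1 and 5 no tissue difference of a member passed the test. The difference at day 1 was 1.17 for miR-286 (SE 1.41, adjusted p = 0.811), -0.05 for miR-309b and -0.14 for miR-309a. The sign of the last pair turned with library totals as the scale. At day 5 it was 0.29 for miR-286 (SE 1.41, adjusted p = 0.97), -0.58 for miR-309b (adjusted p = 0.885) and -1.10 for miR-309a (SE 1.35, adjusted p = 0.713). No member was called at either day, beside 3.12% of all sequences at day 1 and 2.18% at day 5. Without both second replicates of day 9 no member was called either, beside 18.1% at day 1 and 27.4% at day 5. No member had an unadjusted p under 0.05 at either day by limma, edgeR or DESeq2. With all libraries the standard errors of the main sequences were 1.35 to 1.48, so differences of this size are not detectable in that fit. Those standard errors include the spread between the day 9 libraries.

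At day 9 no member was called with the libraries as labelled, beside 0% of all sequences in limma (1 sequence, no member, had an unadjusted p under 0.05). The count models edgeR and DESeq2 also called 0 sequences. The difference for miR-286 was 1.34 (SE 1.41, adjusted p = 0.994). The first replicates alone gave 6325.32 in ovary and 167.60 in fat body for miR-286, 1018.03 and 31.79 for miR-309a, and 787.78 and 21.67 for miR-309b. Without both second replicates the fit called the 7 members and 34.6% of all sequences, with 5.23 for miR-286 (adjusted p = 0.00462). That fit has 1 library per tissue at day 9, assumed to vary like the other groups, and is no replicated result.

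**Figure D2:**
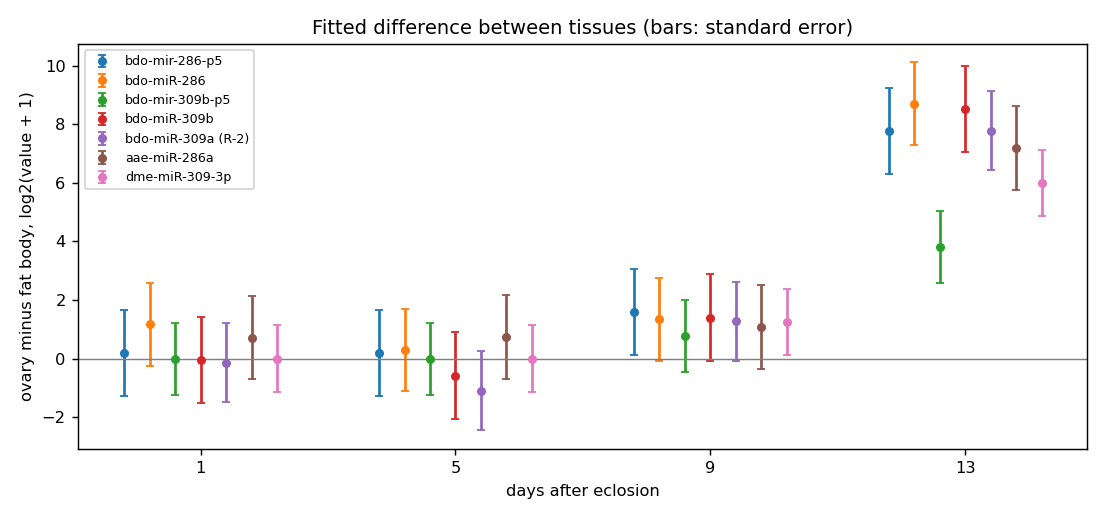
Ovary minus fat body on the log2(value + 1) scale at each day for the 7 tested member sequences, points for the fitted difference of 2 libraries against 2 and bars for its standard error, all 16 libraries as labelled. At days 1 and 5 the points lie between -1.10 and 1.17, and at day 13 the main sequences lie between 7.77 and 8.70.

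The change from day 1 to day 13 was larger in ovary than in fat body by 8.57 for miR-309b (SE 2.09, adjusted p = 0.0202), 7.91 for miR-309a (SE 1.90, adjusted p = 0.0202) and 7.53 for miR-286 (SE 1.99, adjusted p = 0.024). In this interaction limma called 6 of the 7 members, all but bdo-mir-309b-p5, beside 14% of all sequences, and 7 members beside 32.4% without both second replicates of day 9. Fewer members were called without any single library of day 1 or day 13, in fits that leave 1 library in a group. The share of all sequences called in those fits is not given here, so this describes the fits and not the members alone. Without single libraries the difference ran from 6.78 to 10.37 for miR-309b, from 6.99 to 8.83 for miR-309a and from 6.02 to 9.04 for miR-286. With edgeR 3 members were called (24 of all sequences) and with DESeq2 5 (57 of all sequences). In fat body alone the joint test over days called miR-286 (largest change from day 1 7.15, adjusted p = 0.0282), miR-309a (5.91, adjusted p = 0.04) and aae-miR-286a (6.83, adjusted p = 0.0282), 3 of 7 members beside 16.5% of all sequences. These largest changes are those of day 9 and include the library with 26.6% of ovary markers. Without both second replicates of day 9 the call was left for miR-286 (4.30, adjusted p = 0.0265), 1 of 7 members beside 30.5% of all sequences. Without single libraries the largest change in fat body ran from 4.3 to 10.01 for miR-286, from 3.2 to 8.62 for miR-309a and from 2.64 to 8.42 for miR-309b. The number of members called moved with each fat body library left out, again with no share of all sequences given here.

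The remaining members followed at lower levels. The longer form aae-miR-286a stood in ovary at 0.72 and 1.97 at day 1 and at 1661.39 and 1053.31 at day 13, 7.19 above fat body at day 13 (SE 1.43, adjusted p = 0.00218, and 9.68e-05 without both second replicates of day 9). The arm bdo-mir-286-p5, the strand opposite to miR-286, stood at 316.10 and 326.39 in ovary at day 13 and at 1.18 and 0 in fat body, given with no test since it passed the filter only where it is high. The arm bdo-mir-309b-p5 was listed at 0 in all libraries of days 1 and 5 and stood at 20.22 and 8.14 in ovary at day 13, and dme-miR-309-3p_R+1_1ss1GT was at 0 in the same early libraries and at 59.35 and 66.00. The arm bdo-mir-309a-p5_1ss5AT did not pass the filter and reached 6.33. The 3 entries with a dwi prefix (2 sequences) held identical values in every library, between 0 and 9.72 per entry, with the highest value in fat body at day 13. The entry aae-miR-286b, just outside the name rule, shared its first 20 bases with miR-286 and stood at 7.03 and 11.75 in ovary at day 13. The dwi entries stood at 3.54 and 9.72 in fat body and at 1.32 and 0.90 in ovary at day 13, opposite in order to the other members.

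Ratios of members within a library do not depend on the scaling. The ratio of miR-309b to miR-309a, the entry of 21 bases over that of 20, was 0.774 and 0.939 in ovary at day 9. It was 2.18 and 1.77 at day 13. In some early libraries the values of both entries fell between whole steps, as 3.95 and 3.23 in ovary day 1 replicate 1 (step 0.7184). How a read matching both entries was counted is not stated, so the ratio is one of deposited values, not of reads of each length. The libraries labelled fat body day 9 gave 0.682 and 0.884, so all 4 libraries of that day lay below 1. At days 1 and 5 the ovary ratios ran from 1.00 to 1.57, on 2 to 5 recovered reads of each entry. From day 9 to day 13 in ovary the shift was 1.20 on the log2 scale, without overlap (exact permutation test, two-sided, p = 0.333, the smallest p that 2 against 2 allows, n = 2). Replicate 2 of ovary day 9 (0.939), which held 30.0% of fat body markers, is part of this and of each such comparison below. Without that library ovary day 9 has 1 library, so no replicated comparison is left. The ratio of miR-286 to miR-309b went from 8.03 and 6.08 at day 9 to 3.16 and 4.12 at day 13 (-0.95), while that of miR-286 to miR-309a went from 6.21 and 5.71 to 6.88 and 7.29 (0.25). The longer form aae-miR-286a made up a ratio of 0.111 and 0.102 of miR-286 at day 9 and of 0.0785 and 0.0323 at day 13 (-1.08). The opposite strand bdo-mir-286-p5 lay at 0.0208 and 0.0150 of miR-286 at day 9 and at 0.0149 and 0.0100 at day 13, and bdo-mir-309b-p5 at 0.0246 and 0.0108 of miR-309b and then at 0.00302 and 0.00103. Of these 6 ratios compared between the days, each had groups that did not overlap, and each had the same exact p. The 6 ratios share sequences and are not independent. Ratios of other sequences were not compared in this way, so the count has no share beside it and is a description. The arm bdo-mir-309b-p5 had 31 and 2 recovered reads in ovary at day 9 and 46 and 9 at day 13.

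**Figure D3:**
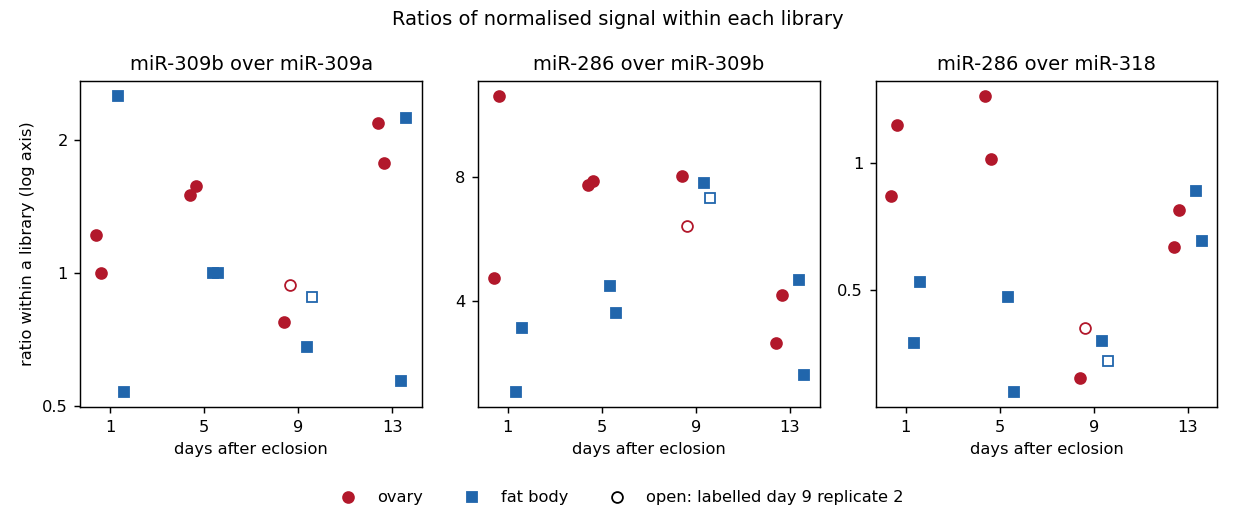
Ratio within each library (log axes) of miR-309b to miR-309a, of miR-286 to miR-309b and of miR-286 to miR-318 against days after eclosion, circles for ovary and squares for fat body, open where the label is day 9 replicate 2. The 4 libraries of day 9 lie below 1 in the left plot and between 0.310 and 0.407 in the right one, and the early points rest on few reads.

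The seed of miR-309 was also that of miR-318, a miRNA abundant in the Drosophila ovary, printed above. Both share their first 8 bases, and from there miR-309b and miR-318 differ at 7 of 21 positions counted from the 5′ end (T9C, A10T, A11T, A12T, G17A, C20T and T21C, miR-309b first). The 5 sequences with this seed summed to 28.73 and 18.22 in ovary at day 1 and to 43582.04 and 54849.15 at day 13, when they made up 5.31% and 5.62% of the signal. The miR-309 forms held 22.6% and 22.7% of that sum at day 13 and 8.16% and 12.2% at day 9, the rest being miR-318 sequences. Over the 16 libraries their share ran from 8.16% to 33.3%, so miR-318 held most of the signal with this seed in every library. The ratio of miR-286 to miR-318 was 0.310 and 0.407 in ovary at day 9 and 0.632 and 0.775 at day 13, and in fat body 0.378 and 0.339 at day 9 and 0.857 and 0.653 at day 13.

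The seed of miR-286 was shared with miR-279 (dgr-miR-279_R-2), a miRNA that acts in sensory organ development in Drosophila, and with miR-996, made from the same transcript as miR-279 there. Between miR-286 and miR-279 the first 8 bases were the same and 11 of 20 positions in all. At day 1 miR-279 stood at 6101.89 and 3142.19 in ovary, so the miR-286 members held 0.287% and 0.556% of the signal with this seed. At day 5 they held 1.52% and 2.04%, at day 9 39.6% and 28.3%, and at day 13 65.9% and 63.7%, at a sum of 34643.79 and 52875.87 over the 7 sequences. In fat body they held 0.0703% to 1.71% at days 1, 5 and 13, and 4.62% and 41.3% in the libraries labelled day 9. The sequence miR-279 itself was called higher in ovary at day 13 than at day 5 (2.38, SE 0.62, adjusted p = 0.0123), and its difference between the tissues at day 13 was 0.22 (SE 0.62, adjusted p = 0.771). For miR-996 (dme-miR-996-3p) these differences were 0.93 (SE 0.50, adjusted p = 0.177) and 1.08 (SE 0.50, adjusted p = 0.0902). Without both second replicates of day 9 both differences of miR-996 were called (SE 0.27, adjusted p = 0.0173 and 0.00653). For miR-279 the adjusted p was then 0.00039 and 0.623.

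**Figure D4:**
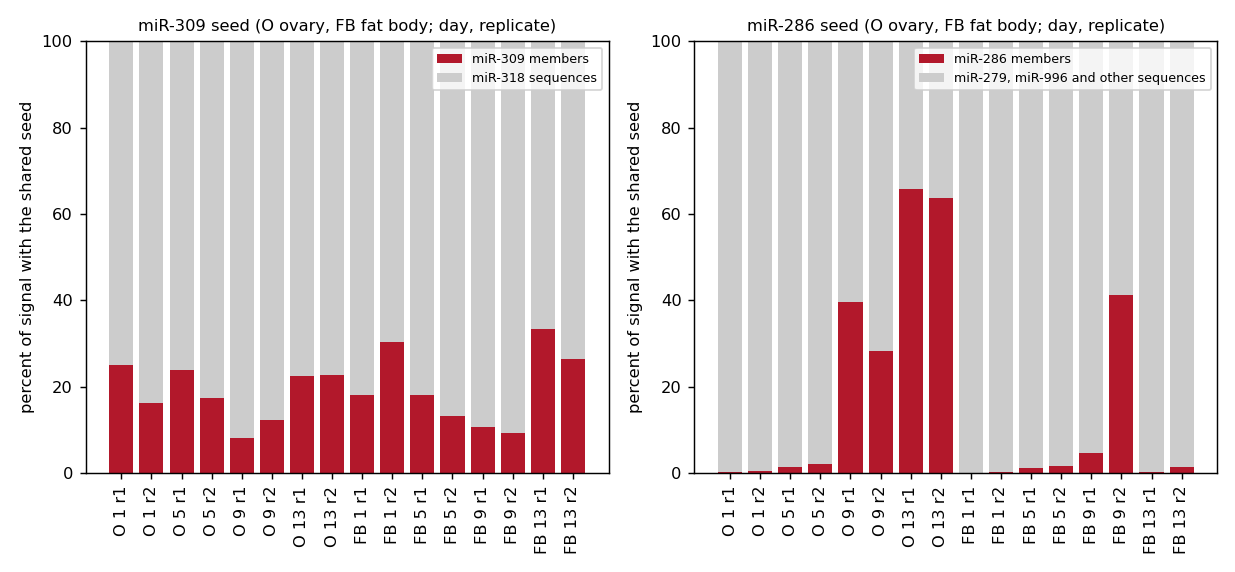
Share in percent of the summed signal with the miR-309 seed (left) and the miR-286 seed (right) that the members (red) and all other sequences with the seed (grey) held in each of the 16 libraries. In ovary at day 13 the miR-286 members held 65.9% and 63.7% of their seed, and the miR-309 members 22.6% and 22.7% of theirs.

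The other miRNAs of the Drosophila cluster, miR-4, miR-5 and miR-6, had 17 sequences in the table, of which 15 were tested. All 15 were called higher in ovary at day 13 than at day 5 and higher than in fat body at day 13, beside 26.8% and 44.9% of all sequences called in either direction, and none between days 1 and 5 in ovary. Without both second replicates of day 9 these counts were again 15, 15 and 0. Of the 15, 7 passed the filter only through the 5 late libraries and had to differ between groups, so the counts are a description, and 8 passed outside them as well. Their median difference from fat body at day 13 was 8.03, beside 0.35 over all 321 sequences. Among them bdo-miR-6 stood at 36371.56 and 58584.57 in ovary at day 13, bdo-miR-4_R-2 at 10634.80 and 18778.81 and bdo-miR-5a at 4319.43 and 4239.47. Isoforms and both arms count separately here and are not independent.

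Likeness to the main sequences was measured as the root mean square difference of log2(value + 1), each sequence centred on its mean, over the 16 libraries. The tested sequence outside the members that lay closest to each of the 3 was bdo-miR-4_R-2, at 0.41 from miR-309a, 0.51 from miR-309b and 0.44 from miR-286, where the median over tested sequences was 3.70, 3.83 and 3.94. The members lay 0.59 to 0.68 from each other. Next to miR-286 came bdo-miR-6 (0.53), bdo-miR-5a (0.63), bdo-miR-318 (0.69) and bdo-mir-5a-p3 (0.72). For miR-309a these were bdo-mir-5a-p3 (0.62), bdo-miR-6 (0.63), dme-miR-994-3p_L+1R-1 (0.64) and bdo-miR-5b (0.70). For miR-309b they were bdo-mir-5a-p3 (0.53), dme-miR-6-3p_R-2_1ss1TC (0.56), bdo-miR-6 (0.71) and bdo-mir-4-p5 (0.79). Over the 14 libraries without both second replicates of day 9, bdo-miR-4_R-2 was again the closest to each, at 0.40, 0.46 and 0.46. All of these named sequences carry a number of the Drosophila cluster except bdo-miR-318 and the miR-994 form.

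The levels in fat body were set beside those of an ovary marker, miR-994, and of the cluster miRNA miR-6, in the same libraries. The ratio of miR-286 to bdo-miR-994_R+1 was 0.0783 and 0.108 in fat body at day 9, where ovary had 0.0830 and 0.104. It was 0.231 and 0.238 in fat body at day 13 (ovary 0.309 and 0.323), 0.178 and 0.0814 at day 5 (ovary 0.365 and 0.231) and 0.138 and 0.120 at day 1 (ovary 0.368 and 0.369). The ratio of miR-286 to bdo-miR-6 was 0.509 in the second library labelled fat body day 9 (ovary 0.375 and 0.492) and 0.474 and 0.519 at day 13 (ovary 0.582 and 0.557). The part of ovary RNA in the fat body values was not tested.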

How the data were processed

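The authors deposited 1 table of small RNA sequencing values, one entry per mature sequence and library, as normalised signal (norm, per the file headers). Per the labels' protocols, total RNA went into TruSeq small RNA libraries, and ACGT101-miR filtered the reads. The sources used here give no aligner, genome build or scaling method. Of 788 entries, 41 repeated a sequence and were summed, giving 747. Division by each library's step (86.5% to 92.9% of low values whole within 0.1) gave 193956 to 1864984 recovered reads, used only for count models. Reads are not independent molecules, and few reads limit the precision of low values. Replicates differed beyond sampling noise (chi-square per degree of freedom 23.52 to 1822.12).

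Sequences reaching 10 in 2 or more libraries were tested with limma 3.58.1 (R 4.3.3) on log2(value + 1), 8 group means and an intensity trend, and Benjamini-Hochberg adjustment (8 residual and 4.91 prior degrees of freedom). Alternatives were pseudocounts of 0.5 and 10, no filter, library totals, TMM, a replicate block, 1 entry per repeated sequence, edgeR 4.0.16 and DESeq2 1.42.0 on recovered reads, and fits without single or day 9 libraries. The code was tested on simulated data. Named sequences were all members, the cluster, seed and marker lists, and the 5 sequences most like each main member. Members, lists and alternatives were chosen with earlier results of these data known. The design text counts fewer samples than the 16 labelled, and the labels were used.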

Additional observations from a re-analysis of the deposited data

Results flagged for a closer look

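The change from day 1 to day 13 differed between the tissues by the interaction term of the limma fit, with ovary above fat body, for 6 member sequences. In the same comparison 14% of all tested sequences were called in either direction. The number of called members fell when any single library of day 1 or day 13 was left out, as given above. The difference of changes on the log2(value + 1) scale was 8.57 for bdo-miR-309b, 7.91 for bdo-miR-309a_R-2, 7.57 for bdo-mir-286-p5, 7.53 for bdo-miR-286, 6.47 for aae-miR-286a and 5.99 for dme-miR-309-3p_R+1_1ss1GT, each with 2 libraries per group. Of these, bdo-mir-286-p5 and dme-miR-309-3p_R+1_1ss1GT passed the filter on low values only through the late ovary libraries and the second library labelled fat body day 9, so they had to differ between groups and their values are a description. Both ovary libraries of day 13 lay above both of day 1 in each case. Groups of 2 libraries are too small for a test of single outlying libraries.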

How the results depend on the processing

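The members called and the 3 main sequences were recomputed under each alternative. Of the alternative counts of called members, 218 stayed within 1.5 times and 24 moved. Where limma called 7 members, edgeR called 6 and DESeq2 5. This held for ovary day 13 against day 5 (86, 78 and 100 of all sequences in the same order of tools). It also held for ovary over days (87, 76 and 124) and for the tissues at day 13 (144, 141 and 158). Of single-sequence differences, 662 kept direction and side of the threshold, 43 lost the call, 9 gained it and 12 turned sign. The number called among all 321 tested sequences moved with the tool too. Over days in fat body it was 53 with limma, 71 with edgeR and 115 with DESeq2, and in the interaction 45 with limma, 24 with edgeR and 57 with DESeq2. In fat body over days, where 3 members were called, 1 was called with a pseudocount of 10, 1 without any day 9 library, 5 with edgeR and 5 with DESeq2. The count also moved when single fat body libraries were left out. At day 9, where 0 were called, the count rose without both second replicates and without fat body replicate 2 alone, fits that leave 1 library in a group. In the interaction, where 6 were called, 3 were called with edgeR and 5 with DESeq2, and the count moved without single libraries. The day 1 difference turned with library totals to 0.13 for miR-309a and 0.22 for miR-309b, and without single libraries ran from -1.06 to 0.78 and from -0.55 to 0.44. The day 9 difference turned with DESeq2 to -0.22 for miR-309a, -0.34 for miR-309b and -0.26 for miR-286. Without single libraries it ran from -1.44 to 3.99, from -1.49 to 4.29 and from -1.52 to 4.20, and without both second replicates it was 4.96, 5.12 and 5.23. The cause was not tested.

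Libraries were treated as unpaired. Differences between replicates correlated at -0.753 to 0.362 over the 28 pairs of groups, with 9 above 0.1. Ovary and fat body of the same day were not examined apart, so pairing within a day was not tested. With a replicate block, 6 members were called over days in ovary and 6 between days 5 and 13 (7 without it), and 5 in the interaction (6 without it), while the other member counts were the same. Scaling shifted the median difference of all sequences by -1.53 to 0.46. For ovary day 13 against day 5 it changed the split of higher and lower calls from 59 and 27 to 39 and 65 with library totals and 41 and 47 with TMM. Over days in ovary the split went from 64 and 23 to 56 and 55, or 53 and 40, in fat body from 48 and 5 to 32 and 9, or 45 and 22, and between tissues at day 5 from 5 and 2 to 35 and 6, or 27 and 4. Low read numbers limit the levels of both miR-309 forms at days 1 and 5.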
